A study of Homo sapiens with 12 samples.

Results

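Knockout line 1 was set against knockout line 2, a pair of the 3 independently generated FMR1-KO lines of SH-SY5Y cells in the series. The comparison uses 4 of 12 libraries: line 1 in heavy SILAC medium, line 1 in light SILAC medium, line 2 in heavy SILAC medium and line 2 in light SILAC medium. They were chosen by their labels. All 4 are labelled as FMR1 knockouts, and the FMR1 level of the heavy library of line 1, given below, lies between those of the other 3 and wild type. Cells of each line spent 2 weeks in DMEM:F-12 SILAC medium with 10% dialyzed fetal bovine serum, with L-lysine (13C6 15N2) and L-arginine (13C6 15N4) as isotope forms in heavy medium and the ordinary forms in light medium. Line 3 (1 library in each medium) and wild-type SH-SY5Y cells (3 libraries in each medium), are given beside them. Each line has 1 library per medium, and the labels do not say whether a line is a single clone. A property of the line and a property of the culture that was sequenced therefore cannot be told apart, and p-values measure only the spread between these libraries, which may be technical in part.

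SH-SY5Y, a cell line grown from a human neuroblastoma, resembles developing sympathetic neurons: it carries the machinery of catecholamine handling, grows short neurites and can be shifted between neuronal and mesenchymal-like states. The protein made from FMR1, FMRP, associates with ribosomes and restrains translation of many neuronal mRNAs. Cancer-testis genes, many of them on the X chromosome, are expressed in germ cells and kept silent in most other tissues, and clustered protocadherins are chosen in differing combinations by single neurons.

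The 4 libraries held 34854477 and 35162761 counts in line 1 and 34621562 and 25935152 counts in line 2. For a line, values are given here for heavy medium first and light medium second. Levels are CPM, counts relative to library sizes scaled by TMM, and a gene is called at an adjusted p under 0.05 in edgeR's quasi-likelihood test with Benjamini-Hochberg adjustment over all genes tested. Log2 fold changes are line 1 over line 2 with medium as a covariate, and SE is their standard error. The targeted transcript FMR1 (chromosome X, 147911951 to 147951125, GRCh38) stood at 22.4 and 11.4 CPM in line 1, against 12.7 and 11.6 CPM in line 2, with 7.15 and 9.06 CPM in line 3 and 37.8 ± 2.16 CPM (SD, n = 6) in wild type. All of the knockout libraries lay below the lowest wild-type library, and the heavy library of line 1 was the highest of them. The lines did not differ past the threshold in FMR1 (log2 fold change 0.42, SE 0.204, adjusted p = 0.487). Without the heavy library of line 1 the log2 fold change was -0.08 (adjusted p = 0.963). The paralogs FXR1 (log2 fold change -0.06, adjusted p = 0.794) and FXR2 (0.07, adjusted p = 0.751) were not called.

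The library labelled as heavy line 1 stood apart from the light one, in FMR1 and across other genes, and is called heavy line 1 by its label only. Over 208 genes in which light line 1 differed at least 4-fold from light wild type, with at least 5 CPM on the higher side, it stood at a median of 50.8% of the way to light line 1, counted from heavy wild type (quartiles 45.7% and 56.2%, range 30.8% to 70.6%). The place was alike for the 112 genes that were higher in light line 1 than in wild type (median 50.9%) and the 96 that were lower (50.5%). The same measure gave 98.3% over 214 genes in line 2 and 97.4% over 14 genes in line 3. Whether this library holds wild-type RNA or cells was not tested, and any value or fold that uses it may not be that of line 1 alone. With the exceptions said below, genes are therefore named only where the light library of line 1 lay beyond both line 2 libraries, and the main counts are also given without the heavy library of line 1. In that second fit, on the other 11 libraries, line 1 has 1 library that is assumed to vary like the other groups.

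**Figure D1:**
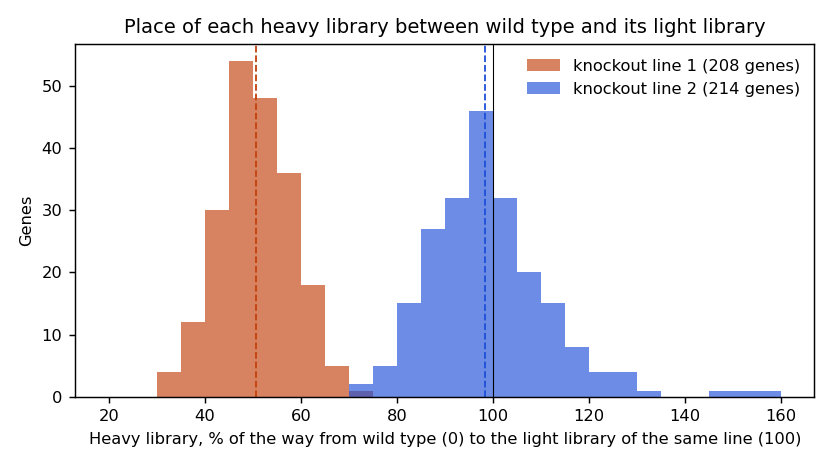
Number of genes (vertical axis) by the place of the heavy library between heavy wild type (0%) and its own light library (100%), for line 1 and line 2; dashed lines are medians. Genes of line 1 centred on 50.8% and genes of line 2 on 98.3%, and the range of line 1 ended at 70.6%.

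Of the cell type markers, 11 of 12 sympathetic neuroblast genes were at 1 CPM or more in all 4 libraries, the other being TH, and their sum was 8930 to 9390 CPM in line 1 and 7900 to 8360 CPM in line 2. Of 7 glial markers, 4 (SOX10, GFAP, CDH19 and FABP7) were at 0 in all 4 libraries, and the sum was 2.42 to 3.37 CPM in line 1 and 3.17 to 4.18 CPM in line 2. The 9 fibroblast and endothelial markers summed to 73.5 to 126 CPM in line 1 and 76.2 to 76.3 CPM in line 2, against 174 to 188 CPM in wild type. PDGFRA and PDGFRB made up nearly all of the sum. PDGFRA had 52.6 and 12.9 CPM in line 1, against 12.1 CPM in light line 2 and a level above that in heavy line 2. PDGFRB had 71.0 and 59.6 CPM in line 1, against 59.2 and 62.6 CPM in line 2. LUM and COL1A1 were detected at 1.05 CPM or less, and DCN, PECAM1 and CDH5 were at 0 in all 4 libraries. The blood markers stayed at or under 0.0775 CPM, with PTPRC, CD3E, CD68, HBB and HBA1 at 0. None of these 35 markers was called in the 4-library fit. Without the heavy library of line 1, the neuroblast factor PHOX2A was called higher. It had 530.0 and 540 CPM in line 1, against 399 and 439 CPM in line 2.

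Few genes separated lines 1 and 2. Of 16295 genes tested, 181 were called (1.11%), 66 higher in line 1 (0.405%) and 115 lower (0.706%). At least 2-fold differences made up 29 of the higher and 72 of the lower genes. In a fit of the 6 knockout libraries, line 1 and line 2 differed in 157 of 16722 genes (0.939%), line 1 and line 3 in 814 (4.87%) and line 2 and line 3 in 3020 (18.1%). These 3 contrasts share libraries, and the counts were not tested against each other. Fits on 12 libraries (2.81%, 11.6% and 27.2%) and without the heavy library of line 1 (1.36%, 15.8% and 28.4%) kept this order. In bulk RNA, fewer cells expressing a gene and less RNA per cell cannot be told apart. Light line 1 lay beyond both line 2 libraries in 178 of the 181 genes, which calling on these same libraries largely fixed in advance. The share over all genes tested was not counted. The other called genes were NEAT1, MALAT1 and AC015813.1, which are long noncoding RNAs. They were higher in heavy than in light medium in both lines and higher in line 1 within each medium. In the second fit light line 1 alone stands for line 1, so its place beyond line 2 in called genes is nearly fixed by design. Without the heavy library of line 1, 239 of 17511 genes were called (1.36%), 98 higher in line 1 (0.56%) and 141 lower (0.805%), and in all 239 light line 1 lay beyond both line 2 libraries. The 2 fits shared 125 genes, all with the same direction.

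**Figure D2:**
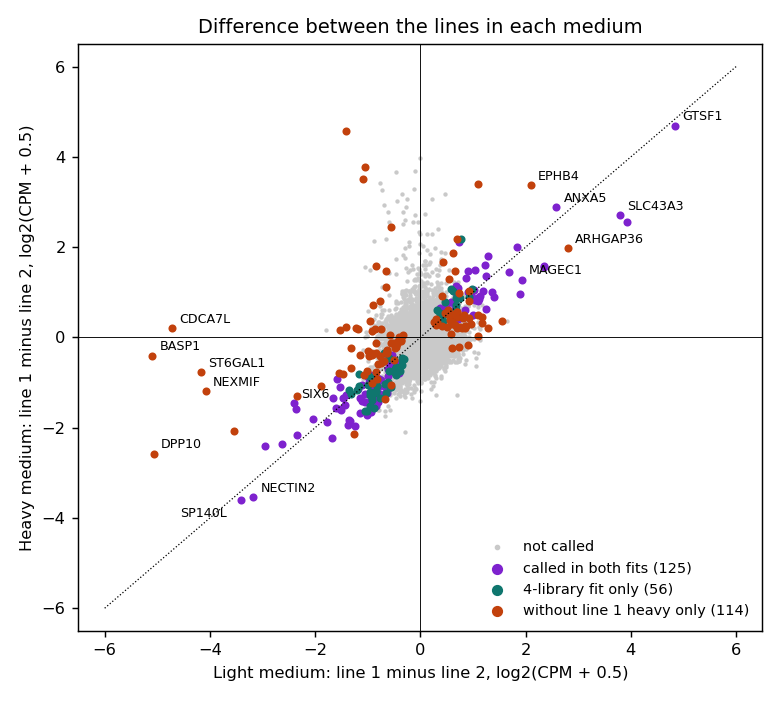
Difference between line 1 and line 2 in light medium (horizontal axis) and in heavy medium (vertical axis), each on the log2(CPM + 0.5) scale; each point is a gene, coloured by the fit that called it, and the dotted line marks equal differences. GTSF1, SLC43A3, ANXA5, SP140L and NECTIN2 lie far from 0 in both media, while BASP1 and CDCA7L lie far from 0 in light medium and near it in heavy medium.

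Set against the range of the 6 wild-type libraries, the 178 genes held a largest class in which all 3 counted libraries (line 1 light and both of line 2) left wild type on the same side and line 2 went farther (106 genes, 59.6%). In 33 genes (18.5%) light line 1 was within the wild-type range and both line 2 libraries outside it. The reverse, line 2 within and light line 1 outside, held for 3 genes (1.69%). The lines lay on opposite sides of wild type in 19 genes (10.7%), and line 1 was farther on the same side in 7 (3.93%). A wide gap between the line 1 libraries can keep a gene from being called in the 4-library fit. These shares therefore depend partly on the heavy library of line 1. They were counted in called genes only, so whether line 2 also lay farther from wild type over all genes is not shown. Among the 239 genes called without the heavy library of line 1, line 2 was farther in 34.3% and line 1 farther in 20.9%, with line 1 alone outside in 5.86%.

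The widest gaps were in a small set of genes. By a rule set after values were seen, at least 8-fold between light line 1 and both line 2 libraries with at least 2 CPM on the higher side, 16 genes qualified, 5 higher and 11 lower in line 1, and 13 of them were at least 16-fold apart. GTSF1 encodes a small zinc finger protein of germ cells, known in mice as a cofactor of the piRNA pathway that silences transposons. It (ENSG00000170627.10; chromosome 12, 54455950 to 54473602, minus strand, GRCh38) had 18.2 and 32.5 CPM in line 1, against 0.224 and 0.659 CPM in line 2, with 2.56 and 2.48 CPM in line 3 and 0.482 ± 0.0618 CPM (SD, n = 6) in wild type (log2 fold change 5.89, SE 0.201, adjusted p = 2.59e-06). Both line 1 libraries exceeded all other libraries, and without the heavy one the log2 fold change was 6.21 (adjusted p = 2.47e-12). SLC43A3, a purine nucleobase transporter (ENSG00000134802.17; chromosome 11, 57406954 to 57427580, minus strand), had 3.496 and 6.43 CPM in line 1, against 0.112 and 0 CPM in line 2, with 1.26 and 1.12 CPM in line 3 and at most 0.0968 CPM in wild type. Light line 1 was at least 55.3-fold above either line 2 library, taking 3 counts per library as the floor for the line 2 library without a read (adjusted p = 0.00507). The zinc finger genes ZNF311 and ZNF544 and the noncoding LINC02607 were the other 3 higher in line 1. ZNF311 had 1.08 and 2.04 CPM in line 1, against 0.02803 and 0 CPM in line 2. ZNF544 had 1.63 and 2.44 CPM in line 1, against 0.224 and 0.0775 CPM in line 2, and LINC02607 had 9.18 and 19.4 CPM in line 1, against 1.15 and 0.814 CPM in line 2. ZNF311 was at 1 count in heavy and 0 in light line 2, and at 0.0327 CPM or less in wild type.

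Start regions of some of these genes are shown for their CpG content, since CpG-rich and CpG-poor promoters are known to carry DNA methylation differently. Methylation was not measured here. Promoters (250 bases before to 50 after the start, from RefSeq on GRCh38.p14, gene strand, with every CG in capitals) matched 14 of the 16 genes. The motif is CG, which reads the same on both strands, and it occurs in 95.8% of all 27305 promoters in that table. An observed over expected CpG ratio of 0.6 or more was found for 9 of 14 (64.3%), against 49.0% of all promoters, and no test was made. MAGEA12 and MAGEC1 are added as germline genes higher in line 1, although they fall short of 8-fold. GTSF1 (chr12:54473553-54473852, minus strand, ratio 0.349), MAGEC1 (chrX:141903644-141903943, plus strand, 0.515) and MAGEA12 (chrX:152733507-152733806, plus strand, 0.347) were higher in line 1. CDCA7L (chr7:21945850-21946149, minus strand, 0.859) and NECTIN2 (chr19:44846047-44846346, plus strand, 0.888) were lower. These genes were picked for display, with MAGEC1 and MAGEA12 from outside the 16, so no link between ratio and direction is read from them. The 14 matched genes were not split by direction.
GTSF1: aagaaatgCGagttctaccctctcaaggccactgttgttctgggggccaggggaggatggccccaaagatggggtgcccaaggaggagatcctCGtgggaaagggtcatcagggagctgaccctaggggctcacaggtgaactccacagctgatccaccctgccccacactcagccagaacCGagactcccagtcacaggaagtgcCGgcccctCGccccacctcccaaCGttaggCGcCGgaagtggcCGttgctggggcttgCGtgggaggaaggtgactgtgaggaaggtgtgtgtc
MAGEC1: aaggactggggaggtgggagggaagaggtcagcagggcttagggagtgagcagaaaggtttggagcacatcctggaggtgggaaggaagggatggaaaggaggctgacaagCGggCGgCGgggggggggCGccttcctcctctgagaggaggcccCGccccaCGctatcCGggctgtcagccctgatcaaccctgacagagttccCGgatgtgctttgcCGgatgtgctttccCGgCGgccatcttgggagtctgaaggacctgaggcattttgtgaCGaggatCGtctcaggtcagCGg
MAGEA12: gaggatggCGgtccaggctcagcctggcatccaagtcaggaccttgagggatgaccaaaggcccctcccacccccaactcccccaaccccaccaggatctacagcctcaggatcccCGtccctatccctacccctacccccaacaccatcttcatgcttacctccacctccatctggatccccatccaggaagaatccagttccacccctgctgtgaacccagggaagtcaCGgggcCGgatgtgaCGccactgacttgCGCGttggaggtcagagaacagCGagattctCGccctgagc
CDCA7L: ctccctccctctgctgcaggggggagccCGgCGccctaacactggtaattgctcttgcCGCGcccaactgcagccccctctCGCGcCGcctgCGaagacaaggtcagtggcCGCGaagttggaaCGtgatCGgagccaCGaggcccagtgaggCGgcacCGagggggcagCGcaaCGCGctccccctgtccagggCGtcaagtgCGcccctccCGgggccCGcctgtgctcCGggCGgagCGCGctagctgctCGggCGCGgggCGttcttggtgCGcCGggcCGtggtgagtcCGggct
NECTIN2: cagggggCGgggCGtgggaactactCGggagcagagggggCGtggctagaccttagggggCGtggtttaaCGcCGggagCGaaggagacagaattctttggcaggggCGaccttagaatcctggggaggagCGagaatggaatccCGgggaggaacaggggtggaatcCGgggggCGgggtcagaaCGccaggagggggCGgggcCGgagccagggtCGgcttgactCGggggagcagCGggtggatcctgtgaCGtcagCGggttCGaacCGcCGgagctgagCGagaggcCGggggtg

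Among the 11 genes lower in line 1, 5 were low in both of its libraries. SP140L, a member of the SP100 family of nuclear body proteins (ENSG00000185404.16; chromosome 2, 230327184 to 230403732, plus strand), had 0.0874 and 0.198 CPM in line 1, against 6.67 and 6.897 CPM in line 2 (log2 fold change -5.54, SE 0.331, adjusted p = 9.11e-05). It was at 0 in both line 3 libraries and at 0.172 ± 0.0586 CPM (SD, n = 6) in wild type, so line 2 alone held it at several CPM. NECTIN2, an immunoglobulin-like adhesion molecule of cell junctions (ENSG00000130202.9; chromosome 19, 44846175 to 44889228, plus strand), had 1.17 and 1.45 CPM in line 1, against 18.8 and 17.1 CPM in line 2 (log2 fold change -3.78, SE 0.177, adjusted p = 1.62e-05). Here line 3 was with line 2, at 14.4 and 14.2 CPM, and line 1 with wild type, at 1.52 ± 0.286 CPM (SD, n = 6). ATP8A2, a phospholipid flippase of neurons, had 0.0583 and 0.0283 CPM in line 1, against 2.47 and 3.56 CPM in line 2. The potassium-chloride cotransporter gene SLC12A7 had 0.291 and 0.227 CPM in line 1, against 3.03 and 3.22 CPM in line 2. LINC02616 had 0.233 and 0.113 CPM in line 1, against 3.25 and 3.29 CPM in line 2. Wild type stood at or under 0.659 CPM in all 6 libraries for these last 3 genes.

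The other 6 were lowest in light line 1, with the heavy library of line 1 in between. BASP1, a membrane protein abundant in growth cones (ENSG00000176788.8; chromosome 5, 17065598 to 17276843, plus strand), had 43.1 and 1.33 CPM in line 1, against 57.1 and 61.99 CPM in line 2, with 74.3 and 73.3 CPM in line 3 and 88.01 ± 1.94 CPM (SD, n = 6) in wild type. CDCA7L, a nuclear partner of MYC (ENSG00000164649.19; chromosome 7, 21900900 to 21946084, minus strand), had 43.6 and 0.991 CPM in line 1, against 37.8 and 38.6 CPM in line 2, with 91.2 ± 4.58 CPM (SD, n = 6) in wild type. Its heavy library was close to line 2, and its light library 38.2-fold or more below both line 2 libraries. ST6GAL1, a sialyltransferase of the Golgi (ENSG00000073849.14; chromosome 3, 186930485 to 187078553, plus strand), had 5.48 and 0.113 CPM in line 1, against 9.698 and 10.6 CPM in line 2, with 12.4 ± 0.726 CPM (SD, n = 6) in wild type. NEXMIF, an X-linked gene of neurite outgrowth (ENSG00000050030.14; chromosome X, 74732856 to 74925485, minus strand), had 4.84 and 0.3399 CPM in line 1, against 11.7 and 13.7 CPM in line 2, with 10.6 ± 1.61 CPM (SD, n = 6) in wild type. DPP10, an auxiliary subunit of Kv4 potassium channels (ENSG00000175497.16; chromosome 2, 114442299 to 115845752, plus strand), had 4.57 and 0.312 CPM in line 1, against 29.8 and 26.7 CPM in line 2, so the lines stood on either side of the wild-type level of 9.17 ± 1.04 CPM (SD, n = 6). DPP10-AS1 lies within DPP10 on the opposite strand and had 1.08 and 0.142 CPM in line 1, against 6.11 and 6.97 CPM in line 2. The strand setting of the counting is not known from the labels, so reads of this pair may not be separable. None of the 6 passed in the 4-library fit (adjusted p from 0.308 to 0.88). These genes were called without the heavy library of line 1, but that fit tests the same gap by which they were picked. In each, heavy line 1 stood at 30.7% to 56.1% of the way from wild type to light line 1.

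**Figure D3:**
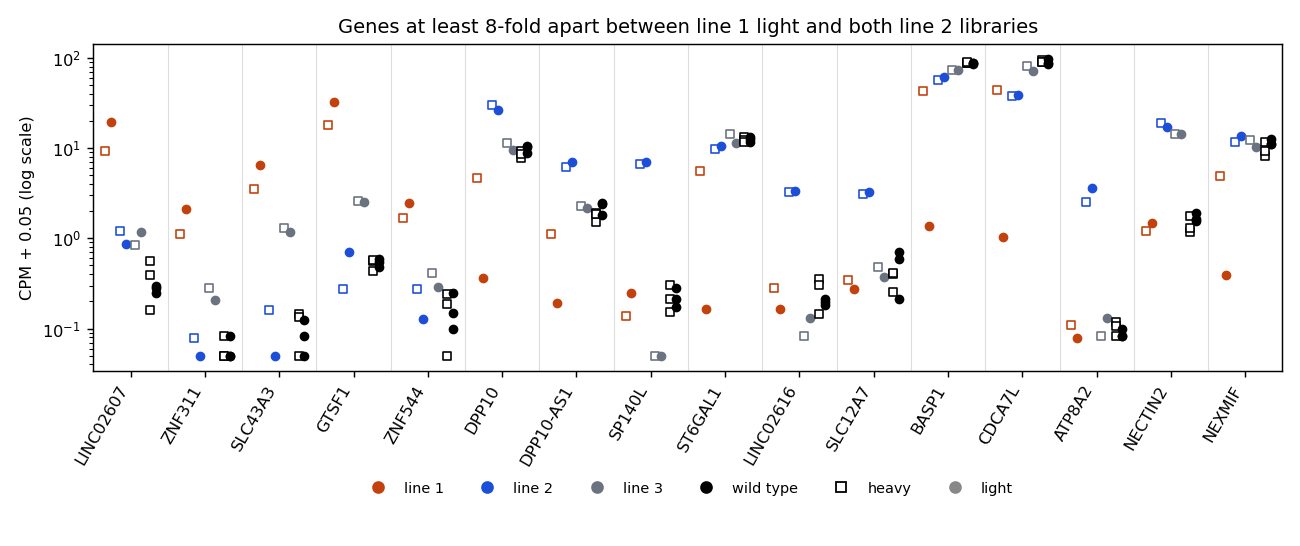
CPM + 0.05 on a log scale (vertical axis) for the 16 genes at least 8-fold apart; each mark is a library, open squares heavy and filled circles light medium, with line 1, line 2, line 3 and wild type from left to right within each gene. The first 5 genes are high in line 1 and the last 11 in line 2, and heavy line 1 lies far above light line 1 in BASP1, CDCA7L and ST6GAL1.

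A separate rule on presence asked for at least 1 CPM in light line 1 or in both line 2 libraries. The counted libraries of the other line had to be at most 0.1 CPM. It gave 1 gene on in line 1 (ZNF311) and 4 on in line 2. These were ATP8A2, AL121904.1, UBXN10 and SERPINB9, an inhibitor of granzyme B. UBXN10 had 0.146 and 0 CPM in line 1, against 1.09 and 2.05 CPM in line 2. SERPINB9 had 0.0874 and 0 CPM in line 1, against 1.54 and 1.55 CPM in line 2. In light line 1 AL121904.1, UBXN10 and SERPINB9 were at 0 counts, which allows up to 0.085 CPM at the floor of 3 counts. These genes were chosen after their values were seen, and floors cover counting error only.

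Some germline genes of the X chromosome were higher in line 1. Of 11 tested cancer-testis and germline genes, normally confined to testis and placenta and often switched on in tumours, 3 rose (MAGEC1, MAGEA12 and MAGEA3), 0 fell and 8 were not called, beside 0.405% of all genes that rose, with a median log2 fold change of 0.551 against -0.00177 over all genes. Without the heavy library of line 1, 5 of 12 rose, with MAGEA6 and MAGEA10 added, beside 0.56% of all genes, and the median was 0.868. MAGEC1 (ENSG00000155495.8; chromosome X, 141903894 to 141909388, plus strand) had 23.6 and 39.4 CPM in line 1, against 9.42 and 9.996 CPM in line 2, with 4.49 and 5.36 CPM in line 3 and 1.31 ± 0.3001 CPM (SD, n = 6) in wild type (log2 fold change 1.65, SE 0.166, adjusted p = 0.00807). It was above wild type in both lines and farther above it in line 1. MAGEA12 had 84.2 and 116 CPM in line 1, against 41.6 and 44.8 CPM in line 2 (log2 fold change 1.195, SE 0.096, adjusted p = 0.00105), with line 3 and wild type at the level of line 2, at 41.6 and 41.98 CPM and 42.3 ± 1.51 CPM (SD, n = 6). Its neighbour CSAG1, a further cancer-testis gene, had 30.8 and 44.1 CPM in line 1, against 16.4 and 16.4 CPM in line 2 (adjusted p = 0.00892). MAGEA3 had 54.6 and 66.6 CPM in line 1, against 35.7 and 36.9 CPM in line 2 (adjusted p = 0.00598). In all 4 genes both line 1 libraries lay above both line 2 libraries, which the rules for calling and naming largely fixed in advance. The light library of line 1 was the highest of them. MAGEA3, CSAG1 and MAGEA12 lie next to each other on chromosome X (152698752 to 152737669) and were the only run of 3 neighbouring tested genes called in 1 direction. MAGEA genes are close paralogs, so the split of reads between MAGEA3, MAGEA6 and MAGEA12 is uncertain.

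Of the other large rises, several were genes low in line 2, with line 1 nearer to wild type. ANXA5, a calcium-dependent protein that binds phosphatidylserine on membranes (ENSG00000164111.14; chromosome 4, 121667955 to 121697113, minus strand), had 62.4 and 50.1 CPM in line 1, against 8.04 and 7.94 CPM in line 2 (log2 fold change 2.81, SE 0.11, adjusted p = 4.47e-06). Line 3 had 89.8 and 76.2 CPM and wild type 77.8 ± 2.59 CPM (SD, n = 6). Line 1 was also below every wild-type library, and line 2 was the lowest. PRSS12, the secreted neuronal protease neurotrypsin, had 91.7 and 99.1 CPM in line 1, against 44.4 and 43.3 CPM in line 2 (log2 fold change 1.12, SE 0.077, adjusted p = 0.000258), and wild type, at 73.3 ± 3.83 CPM (SD, n = 6), lay between the lines. PCDHB15, a clustered protocadherin, had 5.88 and 5.95 CPM in line 1, against 1.09 and 1.32 CPM in line 2 (log2 fold change 2.300, SE 0.223, adjusted p = 0.00178), with wild type at the level of line 1 (5.803 ± 0.693 CPM (SD, n = 6)). GABARAPL1, an ATG8 protein of autophagosomes, had 10.9 and 8.16 CPM in line 1, against 3.25 and 3.22 CPM in line 2 (adjusted p = 0.0037). ADGRE5, the adhesion receptor CD97, had 5.68 and 5.495 CPM in line 1, against 2.89 and 2.36 CPM in line 2 (adjusted p = 0.0382). HLA-C, which presents peptides to T cells, had 7.31 and 8.58 CPM in line 1, against 3.84 and 3.72 CPM in line 2 (adjusted p = 0.024), the only call among 8 tested genes of antigen presentation. PLEKHA4, a phosphoinositide-binding adaptor, had 4.84 and 3.71 CPM in line 1, against 1.43 and 1.74 CPM in line 2 (adjusted p = 0.0329). For these 4 genes wild type lay nearer to line 1 than to line 2, at 8.74 ± 0.888 CPM (SD, n = 6), 6.53 ± 0.627 CPM (SD, n = 6), 7.42 ± 1.35 CPM (SD, n = 6) and 6.21 ± 0.542 CPM (SD, n = 6). TGIF1, a homeobox repressor in TGF-beta signalling, had 5.16 and 1.27 CPM in line 1, against 0.757 and 0.542 CPM in line 2, and its call was not stable. The log2 fold change was 2.19 (adjusted p = 0.0382) in the 4-library fit and 0.98 (adjusted p = 0.324) without the heavy library of line 1, and the adjusted p was 0.0838 on all 12 libraries and 0.473 on 6.

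**Figure D4:**
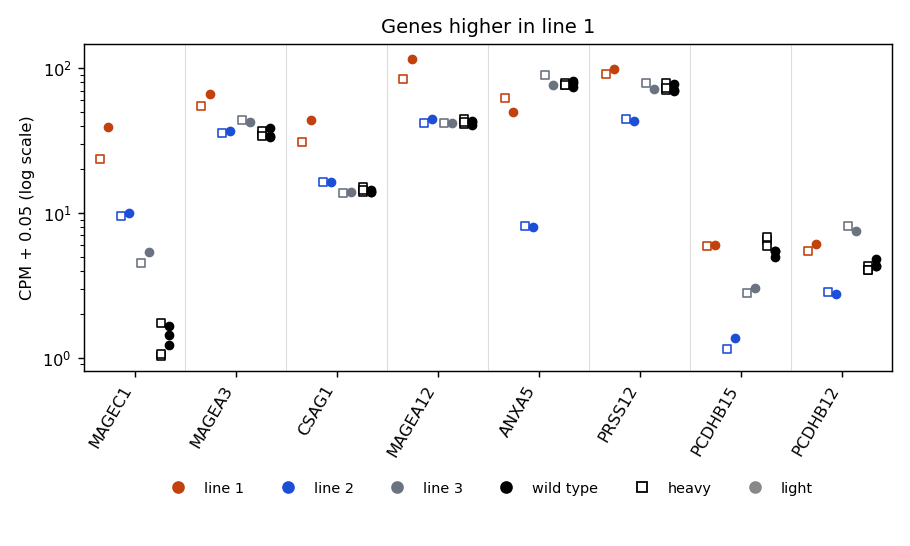
CPM + 0.05 on a log scale (vertical axis) for 8 genes higher in line 1, with line 1, line 2, line 3 and wild type from left to right within each gene, open squares heavy and filled circles light medium. The 4 germline genes on the left are highest in line 1, whereas in ANXA5, PRSS12 and PCDHB15 line 2 is the lowest.

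Clustered protocadherins, whose combinations of isoforms give neurons distinct surface identities, held a few calls. Of 44 tested, PCDHB12 and PCDHB15 rose, PCDHGB7 fell and 41 were not called, beside 1.11% of all genes called, with a median log2 fold change of -0.0669. PCDHB12 had 5.39 and 6.06 CPM in line 1, against 2.803 and 2.71 CPM in line 2 (adjusted p = 0.0405). PCDHGB7 had 20.2 and 24.3 CPM in line 1, against 42.5 and 47.4 CPM in line 2 (log2 fold change -1.02, SE 0.091, adjusted p = 0.00105). PCDHGB7 in line 2 was the highest of all groups, wild type being at 15.2 ± 1.07 CPM (SD, n = 6). PCDHB16 also rose without the heavy library of line 1. The exons of these genes lie in tandem on chromosome 5 and the gamma isoforms share constant exons, so their reads may be divided unevenly.

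Genes of neuronal form and transmitter handling were among those lower in line 1. Of 27 tested growth-cone and microtubule genes, 4 fell (DPYSL3, DCX, STMN4 and MAPT), 0 rose and 23 were not called, with a median log2 fold change of -0.173. Of all genes tested, 0.706% fell. These 4 and BASP1 fell without the heavy library of line 1. DPYSL3, a collapsin response mediator protein of growing axons, had 78.9 and 93.7 CPM in line 1, against 189 and 194 CPM in line 2 (log2 fold change -1.16, SE 0.081, adjusted p = 0.000258). DCX, the microtubule-binding protein doublecortin of migrating neurons, had 106 and 103 CPM in line 1, against 188 and 191 CPM in line 2 (log2 fold change -0.86, SE 0.072, adjusted p = 0.000827). For DCX, wild type lay between the lines at 146 ± 11.8 CPM (SD, n = 6), whereas for DPYSL3 it lay below both, at 70.3 ± 2.92 CPM (SD, n = 6). STMN4, a stathmin that binds tubulin, had 67.3 and 66.9 CPM in line 1, against 113 and 94.9 CPM in line 2 (adjusted p = 0.00829). MAPT, which encodes tau, had 56.1 and 76.6 CPM in line 1, against 97.9 and 102 CPM in line 2 (adjusted p = 0.0382). Both were above wild type in either line, at 35.99 ± 2.703 CPM (SD, n = 6) and 36.5 ± 3.98 CPM (SD, n = 6) in wild type.

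Some genes of catecholamine synthesis, transport and breakdown were also lower in line 1. Of 16 tested, 5 fell (MAOB, SLC18A1, MAOA, QDPR and SLC18A2), 0 rose and 11 were not called, beside 0.706% of all genes that fell, with a median log2 fold change of -0.351. DBH, which makes noradrenaline, was among those not called. It had 1639 and 1035 CPM in line 1, against 928 and 962 CPM in line 2 (log2 fold change 0.46). Without the heavy library of line 1, 4 fell, SLC18A2 not being among them, beside 0.805% of all genes, and the median was -0.177. MAOB, a monoamine oxidase of the outer mitochondrial membrane, had 17.1 and 23.8 CPM in line 1, against 43.8 and 45.9 CPM in line 2, with 2.69 ± 0.48 CPM (SD, n = 6) in wild type (log2 fold change -1.15, SE 0.115, adjusted p = 0.0028). MAOA, its neighbour on chromosome X (the pair spans 43654907 to 43882447), had 23.6 and 28.5 CPM in line 1, against 39.9 and 42.9 CPM in line 2, with 20.9 ± 0.809 CPM (SD, n = 6) in wild type (log2 fold change -0.68, SE 0.093, adjusted p = 0.0107). SLC18A1, a vesicular monoamine transporter, had 23.3 and 23.4 CPM in line 1, against 45.5 and 39.7 CPM in line 2, with 17.5 ± 1.46 CPM (SD, n = 6) in wild type (log2 fold change -0.87, SE 0.096, adjusted p = 0.00351). QDPR, which regenerates the tetrahydrobiopterin cofactor of tyrosine hydroxylase, had 55.5 and 65.6 CPM in line 1, against 81.96 and 88.9 CPM in line 2, with 44.2 ± 2.47 CPM (SD, n = 6) in wild type (log2 fold change -0.502, SE 0.074, adjusted p = 0.015). In each of these 4 genes both lines exceeded the wild-type mean, and line 2 did so more. TH itself, the first enzyme of the pathway, was under 1 CPM in all 4 libraries.

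In other neuronal lists 1 or 2 genes fell, counts too small to set against the 0.706% of all genes that fell. Only the genes themselves are therefore described. PRPH, the intermediate filament peripherin of peripheral neurons and 1 of 12 intermediate filament genes tested, had 5.098 and 8.04 CPM in line 1, against 17.1 and 15.96 CPM in line 2, with 0.206 ± 0.0552 CPM (SD, n = 6) in wild type (log2 fold change -1.36, SE 0.193, adjusted p = 0.0271). SCN9A, the sodium channel Nav1.7 and 1 of 23 sodium and calcium channel genes, had 12.5 and 18.5 CPM in line 1, against 30.1 and 28.9 CPM in line 2 (adjusted p = 0.0466). KCNK9, a background potassium channel gene, had 1.22 and 1.105 CPM in line 1, against 3.08 and 2.94 CPM in line 2 (adjusted p = 0.0396). KCNG1, a modifier of Kv2 channels, had 5.33 and 6.03 CPM in line 1, against 11.1 and 12.4 CPM in line 2 (adjusted p = 0.00939). They were the 2 called of 25 potassium channel genes, and both fell. NPY2R, a neuropeptide Y receptor and 1 of 14 neuropeptide and granin genes, had 2.97 and 5.24 CPM in line 1, against 8.46 and 10.3 CPM in line 2 (adjusted p = 0.014). PLXNC1, a semaphorin receptor and 1 of 35 axon guidance genes, had 9.61 and 15.3 CPM in line 1, against 28.6 and 27.9 CPM in line 2 (adjusted p = 0.0382). PCDH17, a non-clustered protocadherin and 1 of 9 cadherin genes tested, had 16.7 and 24.6 CPM in line 1, against 36.2 and 39.4 CPM in line 2 (adjusted p = 0.0111). ANK3, the ankyrin-G of the axon initial segment and 1 of 44 long FMRP-ligand mRNAs, had 3.38 and 4.33 CPM in line 1, against 7.79 and 7.904 CPM in line 2 (adjusted p = 0.0285). All 8 genes were highest in line 2 and were also called without the heavy library of line 1. CBLN2, a secreted synapse organiser, went the other way, with 43.5 and 54.5 CPM in line 1, against 30.4 and 35.96 CPM in line 2 (log2 fold change 0.56, SE 0.084, adjusted p = 0.018), as the only call among 15 cerebellin, neurexin and neuroligin genes. Of 35 synaptic vesicle genes, SYN3 fell and the other 34 were not called.

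**Figure D5:**
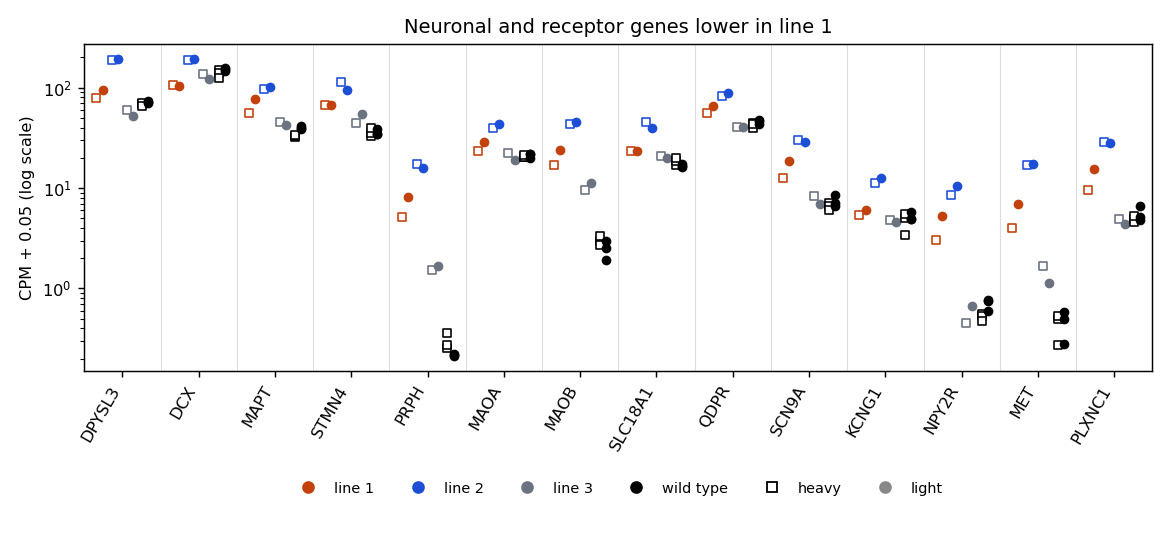
CPM + 0.05 on a log scale (vertical axis) for 14 neuronal and receptor genes lower in line 1, with line 1, line 2, line 3 and wild type from left to right within each gene, open squares heavy and filled circles light medium. Line 2 lies above line 1 in every gene, and heavy line 1 lies between wild type and light line 1 in PRPH, MAOB, MET and PLXNC1.

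The largest falls also held transcription regulators and surface receptors. CDKN2A, which encodes the cell cycle inhibitor p16 and ARF, had 1.78 and 1.05 CPM in line 1, against 6.39 and 7.52 CPM in line 2 (log2 fold change -2.31, SE 0.262, adjusted p = 0.00497), and wild type, at 3.15 ± 0.686 CPM (SD, n = 6), lay between the lines. It was the only call among 45 DNA replication and G1/S genes. The homeobox gene SIX6 had 2.85 and 1.105 CPM in line 1, against 8.74 and 7.98 CPM in line 2 (adjusted p = 0.029), likewise on either side of wild type (4.37 ± 0.712 CPM (SD, n = 6)). SOX6, an HMG-box factor, had 3.06 and 4.47 CPM in line 1, against 16.3 and 15.5 CPM in line 2 (adjusted p = 0.00105). ATXN1, the transcriptional repressor ataxin-1, had 3.32 and 4.82 CPM in line 1, against 13.3 and 13.02 CPM in line 2 (adjusted p = 0.00237). THRB, a thyroid hormone receptor, had 0.903 and 1.501 CPM in line 1, against 3.95 and 3.95 CPM in line 2 (adjusted p = 0.0192). ADARB2, a brain relative of the RNA-editing deaminases, had 1.95 and 2.83 CPM in line 1, against 8.21 and 8.02 CPM in line 2 (adjusted p = 0.00392). Line 2 was at least 2.63-fold above line 1 in light medium in each of these 6 genes.

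MET, the receptor of hepatocyte growth factor, had 3.904 and 6.94 CPM in line 1, against 16.7 and 17.1 CPM in line 2, with 0.392 ± 0.132 CPM (SD, n = 6) in wild type (log2 fold change -1.69, SE 0.201, adjusted p = 0.0139). NRG1, a ligand of ERBB receptors, had 5.16 and 5.07 CPM in line 1, against 10.3 and 9.72 CPM in line 2 (adjusted p = 0.0191). These 2 were the calls among 10 tested genes of the EGF receptor family, MET and their ligands, beside 0.706% of all genes that fell. EGFR rose only in the fit without the heavy library of line 1. CD44, the hyaluronan receptor, had 0.874 and 1.56 CPM in line 1, against 3.59 and 3.29 CPM in line 2, and was called in the 4-library fit (adjusted p = 0.0447) but not without the heavy library of line 1 (0.145). TNFRSF19, a TNF receptor family member, had 0.786 and 1.303 CPM in line 1, against 3.48 and 3.25 CPM in line 2, with adjusted p of 0.0277 in the 4-library fit and 0.0802 without that library. AJAP1, an adherens junction protein, had 1.51 and 2.29 CPM in line 1, against 5.24 and 4.92 CPM in line 2, with 0.0277 in the 4-library fit, 0.416 without that library and 0.24 and 0.211 without the heavy or the light library of line 2. EGFLAM, the matrix protein pikachurin, had 2.62 and 4.33 CPM in line 1, against 11.5 and 12.1 CPM in line 2, with 0.0676 ± 0.04 CPM (SD, n = 6) in wild type (log2 fold change -1.79, SE 0.189, adjusted p = 0.00324). CHST15, a sulfotransferase of chondroitin sulfate, had 12.1 and 10.03 CPM in line 1, against 31.4 and 28.5 CPM in line 2, with line 1 at the wild-type level (11.3 ± 0.914 CPM (SD, n = 6)) and an adjusted p of 0.000459. LINC00654, a noncoding gene, had 1.57 and 2.49 CPM in line 1, against 6.33 and 5.54 CPM in line 2 (adjusted p = 0.0235). In this group of cell surface and matrix genes, line 2 libraries were the highest of all groups throughout.

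Matrix genes as a list were mixed: of 35 tested collagen chains and matrix proteoglycans, COL18A1 rose and SPOCK2 and LAMA4 fell, with a median log2 fold change of 0.0808. Of all genes tested, 0.405% rose and 0.706% fell. COL18A1, whose cleavage gives endostatin, had 76.2 and 84.8 CPM in line 1, against 57.7 and 51.5 CPM in line 2 (adjusted p = 0.0275). SPOCK2, a testican proteoglycan, had 4.08 and 5.297 CPM in line 1, against 9.67 and 10.2 CPM in line 2 (adjusted p = 0.014). LAMA4, a laminin chain, had 6.7 and 9.46 CPM in line 1, against 17.7 and 16.4 CPM in line 2 (adjusted p = 0.0216). NOTCH2, the receptor and the only call among 22 Notch genes, rose with 36.2 and 33.05 CPM in line 1, against 24.9 and 22.5 CPM in line 2 (adjusted p = 0.0294). SFRP1, a secreted WNT antagonist and the only call among 32 WNT genes, fell with 20.04 and 18.04 CPM in line 1, against 29.1 and 29.2 CPM in line 2 (adjusted p = 0.0271). CRABP2, a retinoic acid carrier, had 17.8 and 17.99 CPM in line 1, against 28.3 and 25.1 CPM in line 2, with an adjusted p of 0.0415 that became 0.0692 without the heavy library of line 1. Line 1 and line 2 libraries did not overlap in any of these 6 genes, which the rules for calling and naming largely fixed in advance.

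Lists of cell identity and stress were examined next. Among 22 tested adrenergic core transcription factors only MYC was called in the 4-library fit, with 72.7 and 67.04 CPM in line 1, against 34.6 and 44.6 CPM in line 2 (log2 fold change 0.83, SE 0.116, adjusted p = 0.0278) and an adjusted p of 0.164 without the heavy library of line 1. In that fit PHOX2A and SIX3 were called higher. In both lines MYC was below the wild-type mean of 118 ± 15.8 CPM (SD, n = 6). Among 21 mesenchymal-type genes, NOTCH2 rose and CD44 fell. FOS, an immediate early gene that responds to handling, had 333 and 156 CPM in line 1, against 455 and 235 CPM in line 2. Heavy exceeded light medium in both lines. Line 3 went the other way, with 111.5 and 158.6 CPM. Wild type had 102.9 to 152.2 CPM in heavy and 149.7 to 171.9 CPM in light medium. The log2 fold change of FOS was -0.522 in the 4-library fit (adjusted p = 0.0221). Without the heavy library of line 1 it was -1.24 and FOS was not called. DDIT4, a stress-induced inhibitor of mTORC1 and 1 of 31 amino acid response and transport genes, rose with 36.2 and 41.1 CPM in line 1, against 25.4 and 26.4 CPM in line 2 (adjusted p = 0.024). In the fit without the heavy library of line 1, 7 of these 31 rose, beside 0.56% of all genes: CHAC1, DDIT4, PSAT1, PHGDH, MTHFD2, SLC7A5 and SLC6A9. The mitochondrial genome gave 2 calls of 13, both higher in line 1, beside 0.405% of all genes that rose. MT-ND3 had 1969 and 2138 CPM in line 1, against 1304 and 1570.0 CPM in line 2. MT-ND6 had 114 and 89.3 CPM in line 1, against 65.3 and 64.4 CPM in line 2. The call of MT-ND6 was lost without the heavy library of line 1. Leaving out the heavy library of line 1, 3 rose and 3 fell. Of the 43 gene lists, 26 had a call and 17 had none. No call was made among 52 zinc finger genes of chromosome 19, 32 genes of mitosis and G2/M, 31 of cholesterol synthesis, 25 p53 targets, 23 nonsense-mediated decay factors, 34 translation factors, 19 interferon-stimulated genes or 14 genes of the FMRP family and partners. Beside 1.11% of all genes called, lists of these sizes would hold few calls or none. The missing calls therefore do not show that these genes were unchanged.

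A second set of genes was called in the fit on 11 libraries without the heavy library of line 1 and not in the 4-library fit. That fit differs both in leaving out this library and in holding line 3 and wild type, and of the genes below ARHGAP36, EPHB4 and SPAG6 were also called on all 12 libraries. ARHGAP36, an inhibitor of protein kinase A signalling, had 55.9 and 90.6 CPM in line 1, against 13.9 and 12.6 CPM in line 2, with 18.9 ± 2.197 CPM (SD, n = 6) in wild type, with a log2 fold change of 2.78 (adjusted p = 1.58e-08). The lines lay on either side of wild type, and in the 4-library fit with edgeR the adjusted p was 0.104. On the same 4 libraries DESeq2 (adjusted p = 1.73e-06) and limma-voom (adjusted p = 0.0309) called ARHGAP36. EPHB4, an ephrin receptor, had 25.1 and 10.96 CPM in line 1, against 1.96 and 2.17 CPM in line 2, with 44.7 ± 2.203 CPM (SD, n = 6) in wild type, with a log2 fold change of 2.42 (adjusted p = 1.36e-09). Both lines were below wild type and line 2 was lower. EPHB4 was also called on the 4 libraries by DESeq2 (adjusted p = 0.000377) and limma-voom (adjusted p = 0.0156). The genes below were called by neither. CNN2, an actin-binding calponin, had 9.73 and 1.98 CPM in line 1, against 0.476 and 0.659 CPM in line 2, with 16.7 ± 1.03 CPM (SD, n = 6) in wild type, in the same order (log2 fold change 1.81 (adjusted p = 0.000774)). The GABA-A receptor subunit gene GABRQ had 3.58 and 6.85 CPM in line 1, against 3.48 and 2.94 CPM in line 2 (adjusted p = 0.011). The peptidase gene ECE2 had 1.92 and 3.79 CPM in line 1, against 1.37 and 0.969 CPM in line 2 (adjusted p = 0.0231), and the ciliary gene SPAG6 had 3.496 and 3.31 CPM in line 1, against 1.79 and 1.51 CPM in line 2 (adjusted p = 0.00795). For GABRQ the heavy libraries of the lines were near each other. ADAMTS19, a secreted metalloprotease gene, had 10.5 and 0 CPM in line 1, against 0.308 and 0.542 CPM in line 2, with 24.2 ± 1.63 CPM (SD, n = 6) in wild type. Only the heavy library of line 1, which the second fit leaves out, brought ADAMTS19 and CNN2 to the naming level of 1 log2 CPM. ADAMTS19 was low in both line 2 libraries and in light line 1, where no read was counted. Its log2 fold change was 3.10 (adjusted p = 0.838) in the 4-library fit and -6.72 (adjusted p = 0.00834) without the heavy library of line 1, and DESeq2 on the 4 libraries gave -0.968, so its direction is not settled.

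Called genes were also placed on the genome. Over genes with a mean of at least 3 log2 CPM, median log2 fold changes of the 23 nuclear chromosomes lay between -0.035 and 0.04, and between -0.027 and 0.03 in light medium alone. The share of genes called per chromosome ran from 0.18% on chromosome 15 to 2.75% on chromosome X, against 1.11% of all genes. Of 8 runs of neighbouring called genes with the same direction, 7 held 2 genes. Those lower in line 1 included MAOA with MAOB, DCX with SERTM2 (chromosome X, 111293779 to 111522399) and ADARB2 with AL392083.1 (chromosome 10, 1177318 to 1737476). Neighbouring and overlapping genes can share reads.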

How the data were processed

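Poly(A) RNA of 12 SH-SY5Y libraries was sequenced from stranded libraries, per the labels' protocols. The authors deposited raw whole-number counts per gene for 59087 features, of which 27691 were at 0 in every library, with 25935152 to 40257027 counts per library. Per the submitters' processing notes, bcl2fastq 2.19.0, STAR 2.7.0f, featureCounts of Subread 1.6.4, DESeq2 1.22.1, R 3.5.1 and GRCh38.p13 were used; no annotation release, strand setting or rule for multi-mapping reads is named there. Positions came from GENCODE release 29 on GRCh38, matched by symbol for 56162 features.

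Counts were fitted with edgeR 4.0.16 in R 4.3.3 (TMM, filterByExpr, robust quasi-likelihood F tests, Benjamini-Hochberg at 0.05) on the 4 libraries of lines 1 and 2 with medium as a covariate, which is the replicate block here. The labels give same-numbered knockout libraries as the same line, and medium pairs the lines. This leaves 1 residual degree of freedom, and the moderated spread adds a median of 8.35 prior degrees of freedom. CPM used TMM factors over all 12 libraries. A second fit left out the heavy library of line 1. The other alternatives were RLE factors, DESeq2 1.42.0, limma-voom (limma 3.58.1), no filter, a filter of 1 CPM in 2 libraries, no medium term, glmTreat against 1.5-fold, fits on 6 or 12 libraries and each library left out.

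Genes were named when called, with a mean of at least 1 log2 CPM and light line 1 beyond both line 2 libraries: the 15 largest rises and falls, up to 4 members of each of 43 gene lists (1318 entries, 1311 in the table), up to 6 in each direction called without the heavy library of line 1 but not in the 4-library fit, and FMR1, FXR1 and FXR2. NEAT1, MALAT1, AC015813.1, the genes of the 8-fold and presence rules that this rule does not name, called list members given without values, and neighbours of called genes were chosen after their values were seen. The comparison, members and lists were chosen with earlier results of these data known. Only the 4-library fit was tested on simulated data.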

Additional observations from a re-analysis of the deposited data

Results flagged for a closer look

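Among the 76 named genes, 4 had a wild-type library far from the other 5 by Dixon's test, which flags about 1 in 20 groups by chance. The highest wild-type library had 42.0 CPM of FMR1, 6.6 CPM of PLXNC1 and 16.3 CPM of CRABP2, and the lowest had 3.32 CPM of KCNG1. Wild-type libraries are not in the 4-library fit but are in the fits on 11 and 12 libraries.

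For 2 genes the difference between the lines had opposite signs in the 2 media, though for FMR1 the light difference was very small. There is 1 library of each line per medium, so the difference between media was not tested. FMR1 in line 1 relative to line 2 differed by -0.016 in light medium and by 0.813 in heavy medium on the log2(CPM + 0.1) scale. ADAMTS19 differed by -2.684 in light medium and by 4.696 in heavy medium. Both heavy differences use the heavy library of line 1. It had 22.4 CPM of FMR1 and 10.5 CPM of ADAMTS19, between wild type and light line 1 in each gene. They may therefore not reflect medium or line 1 alone.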

How the results depend on the processing

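The number of genes called depended on the fit. Against 181 (66 higher and 115 lower in line 1), no filter on low counts gave 848 (371 and 477), 12 libraries gave 480 (176 and 304), the fit without the replicate block gave 85 (31 and 54) and glmTreat against 1.5-fold gave 38 (13 and 25). Leaving out 1 library gave 135 to 1245 genes called, 55 to 612 higher and 80 to 633 lower; the highest of each came from leaving out the light library of line 1, which leaves the heavy library alone to stand for it. At an unadjusted p under 0.05, 2002 genes passed. For pairs of lines, 12 libraries gave 480 genes for line 1 over line 2, 1983 for line 1 over line 3 and 4643 for line 2 over line 3, against 157, 814 and 3020 on 6 libraries; without the heavy library of line 1 they were 239, 2770 and 4966. Of the genes called without that library, 5.86% had line 1 alone outside wild type, 20.9% had line 1 farther and 34.3% had line 2 farther, against 1.69%, 3.93% and 59.6%. The presence rule gave 6 genes on in line 1 and 8 on in line 2 at 0.5 and 0.1 CPM, 3 and 12 at 1 and 0.2 CPM, and 1 and 1 at 2 and 0.1 CPM. The place of heavy line 1 was 51.3% at 2-fold and 51.1% at 8-fold.

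ADAMTS19 had a log2 fold change of -6.72 without the heavy library of line 1 and of 3.10 in the 4-library fit and with glmTreat, 3.11 with RLE factors, 3.17 with no filter, 3.65 without the replicate block, 3.25 on 6 libraries, 3.58 on 12, 3.68 with limma-voom, -0.968 with DESeq2 and 2.86, 4.19 or 4.64 with another library of these lines left out. FOS turned to 0.14 without the heavy library of line 2. Of the 61 named genes called in the 4-library fit, 16 lost their call with DESeq2, 25 without the replicate block and 42 with glmTreat, which tests a larger fold; the cause of the first 2 was not tested. ANXA5, SP140L, NECTIN2, PRSS12, SOX6 and MAGEA12 were called in all 13 alternatives, and GTSF1 in 12 of 13. Each line has 2 libraries, and the 4-library fit has 1 residual degree of freedom.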
